A study of Mus musculus with 4 samples.

Results

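A set of 9 transporters of sugars and small acids was followed across nuclei of mouse kidney cortex. They were found by gene symbol as 9 of the 21046 genes of the deposited table: Slc5a2, Slc5a1, Slc5a10, Slc5a8, Slc5a12, Slc2a2, Slc2a1, Slc16a9 and Slc16a14. All 9 symbols were present. Their levels were set out over 23 numbered clusters of nuclei, with the proximal clusters 0, 1, 3, 5, 6 and 12 against the other 17, and between 4 single-nucleus RNA libraries. Each library carried 1 genotype of C57BL/6J mice, and the labels set the loss of endothelial Klf4 against mice with Nos3 and mice without it. The library called Klf4 dEC Nos3 null here is labelled as lacking Klf4 in endothelial cells and lacking Nos3; Klf4 dEC is labelled as lacking endothelial Klf4; Nos3 null as lacking Nos3; and the control as Klf4 flox/flox with no deletion named. The age of the mice, the driver of the endothelial deletion, whether Nos3 null mice carry the flox allele, and how many mice stand behind a library could not be read in the sources used here.

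The proximal tubule takes filtered glucose back from the urine in stages. Sodium-glucose cotransporters on the luminal membrane bring glucose into the cell against its gradient, first through Slc5a2 (SGLT2), which carries the bulk in the early segment, and then through Slc5a1 (SGLT1), which captures what is left further along. Facilitative transporters of the SLC2 family let glucose leave across the basolateral membrane. Lactate, pyruvate, ketone bodies and related monocarboxylates are likewise taken up with sodium by Slc5a8 and Slc5a12, and members of the SLC16 family move monocarboxylates and related compounds without sodium.

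Every level is a mean over nuclei of unique molecular identifiers (UMIs, tags that count RNA molecules) per 10000 UMIs. By an arithmetic described with the processing, the table was inferred to hold 26144 nuclei, 12162 of them in the proximal clusters. Proximal nuclei numbered 2170 in Klf4 dEC Nos3 null, 3295 in Klf4 dEC, 3582 in Nos3 null, set against 3115 in the control. Their depth, inferred as a mean of the cluster medians weighted by nuclei, differed. It was 6494 UMIs in Klf4 dEC Nos3 null, 4861 in Klf4 dEC, 2725 in Nos3 null, set against 5731 in the control. Only nuclei with a gene seen as 1 UMI in that nucleus alone entered these medians. A replicate library exists for none of the genotypes, so no test was made. Brackets after a value give its 95% counting interval, which covers counting error only. The targeted genes did not show the labelled deletions. In endothelial cluster 10 Klf4 stood at 0.824 in Klf4 dEC Nos3 null, 0.779 in Klf4 dEC, 0.445 in Nos3 null, set against 0.621 in the control. Nos3 stood there at 2.07 in Klf4 dEC Nos3 null, 0.930 in Klf4 dEC, 1.52 in Nos3 null, set against 1.26 in the control. Which exons the alleles remove is not stated, and tags from the rest of a gene would not check a deletion. Each genotype name below therefore stands for the library labelled with it.

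The proximal label of the 6 clusters was borne out by a list of 15 proximal tubule markers that holds none of the 9 transporters. The list summed to 181, 222, 189 and 193 per 10000 in proximal nuclei of Klf4 dEC Nos3 null, Klf4 dEC, Nos3 null and the control. In the other clusters it reached 16.2%, 19.3%, 36.1% and 16.95% of those sums in the same 4 libraries, so Nos3 null held the highest share of proximal marker RNA outside proximal nuclei. A list of 7 early-segment markers, among them Slc7a7 and Slc6a19, was highest in cluster 3. Late-segment markers, among them Slc7a13 and Cyp7b1, were highest in cluster 1.

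Of the 9 transporters 7 differed between proximal nuclei and the rest by more than 1 on the log2 scale, as a mean of the 4 libraries. On this scale 1 is a 2-fold difference, and all 7 were higher in proximal nuclei. Of the 4532 genes whose mean reached 0.5 per 10000 on either side, 30.1% were past that limit, 635 of them higher, and the median of all 4532 was -0.15. The clusters were made from these same nuclei, so the difference is a description. Slc5a2 averaged 2.59 ± 0.19 (SD, n = 4 libraries) on the log2 scale of proximal over rest, Slc16a14 2.35 ± 0.52, Slc5a12 2.28 ± 0.93, Slc16a9 2.28 ± 0.53, Slc5a10 2.22 ± 0.14, Slc2a2 2.12 ± 0.43 and Slc5a8 1.98 ± 0.70. In Nos3 null alone Slc5a12 lay at 0.90 and Slc5a8 at 0.94, both under the limit. Slc5a1 lay at -0.54 ± 0.20 and Slc2a1 at -1.60 ± 0.27, both lower in proximal nuclei in 4 of 4 libraries. The mean of Slc2a1 over the 4 libraries was under 0.5 per 10000 on both sides, although the rest of Klf4 dEC Nos3 null held 0.595, and it was not among the 4532 genes.

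**Figure D1:**
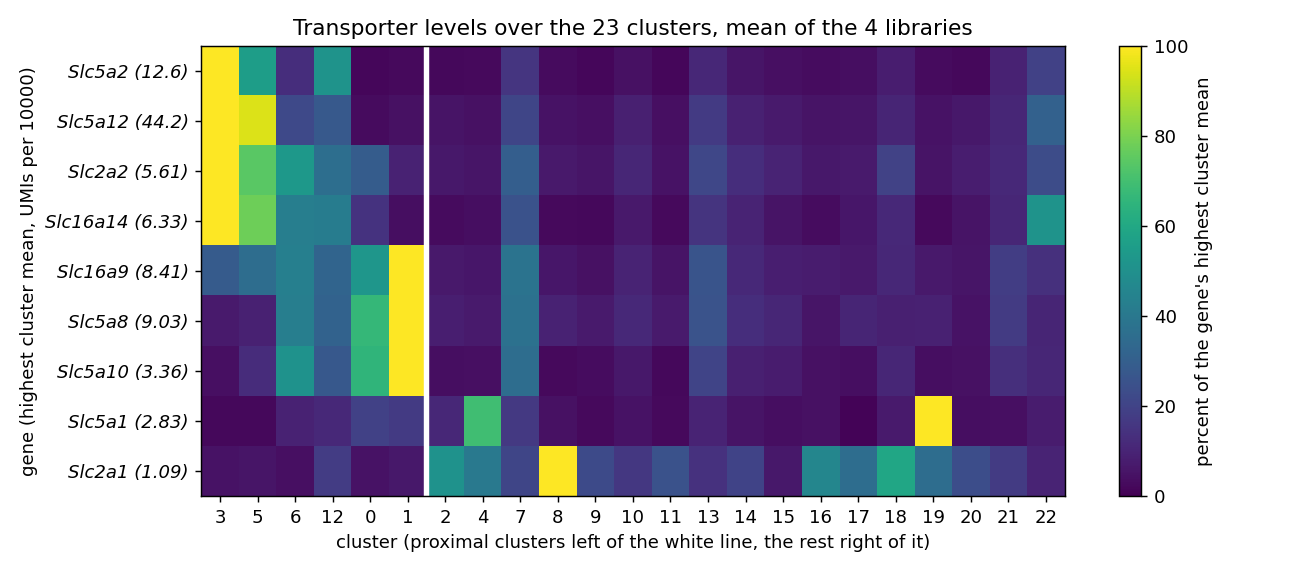
Mean level of each transporter in each of the 23 clusters (columns), as a percent of that gene's highest cluster mean (colour scale), averaged over the 4 libraries; the highest mean in UMIs per 10000 stands beside each gene. In it 4 genes peak in clusters 3 and 5, 3 peak in cluster 1, Slc5a1 peaks in cluster 19 and Slc2a1 in cluster 8.

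Within the proximal nuclei the 7 divided into 2 patterns, and these held in each of the 4 libraries. Slc5a2, Slc5a12, Slc2a2 and Slc16a14 were highest in cluster 3, the cluster richest in early-segment markers. Slc5a10, Slc5a8 and Slc16a9 were highest in cluster 1, the cluster richest in late-segment markers. Slc5a1 was lowest in clusters 3 and 5 and reached its proximal maximum in cluster 0 or 1 in all 4 libraries.

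Slc5a2, at chr7:128265657-128272430 of mm10 (plus strand), showed the steepest gradient of the early-segment genes in 3 libraries. In cluster 3 it stood at 12.8 in Klf4 dEC Nos3 null, 13.02 in Klf4 dEC, 12.7 in Nos3 null, set against 12.1 in the control. In cluster 0 it was at 0.152, 0.187, 0.255 and 0.197 in the same libraries. Cluster 3 therefore exceeded cluster 0 by 84.1, 69.6, 49.7 and 61.3 times in Klf4 dEC Nos3 null, Klf4 dEC, Nos3 null and the control. The 4 cluster 3 values did not overlap with those of any other cluster.

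Slc5a12 (SMCT2, a low-affinity sodium-coupled lactate transporter), at chr2:110597298-110647779 (plus strand), was shared almost evenly by clusters 3 and 5. In cluster 3 it stood at 42.4 in Klf4 dEC Nos3 null, 43.5 in Klf4 dEC, 19.3 in Nos3 null, set against 71.6 in the control. In cluster 5 it stood at 41.2 in Klf4 dEC Nos3 null, 40.1 in Klf4 dEC, 18.1 in Nos3 null, set against 67.9 in the control. The control was highest and Nos3 null lowest in both clusters. Cluster 5 held less Slc5a2 than cluster 3 in every library, at 6.67 in Klf4 dEC Nos3 null, 7.32 in Klf4 dEC, 7.48 in Nos3 null, set against 6.61 in the control, so the 2 genes were graded differently between these early-segment clusters.

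Slc2a2 (GLUT2, the basolateral glucose exit of the early segment), at chr3:28697903-28731359 (plus strand), fell off more gradually along the clusters. In cluster 3 it stood at 5.05 in Klf4 dEC Nos3 null, 6.61 in Klf4 dEC, 5.98 in Nos3 null, set against 4.81 in the control. In cluster 0, where Slc5a2 was lowest, Slc2a2 still stood at 1.32 in Klf4 dEC Nos3 null, 1.72 in Klf4 dEC, 1.87 in Nos3 null, set against 1.65 in the control. Its lowest proximal level was in cluster 1 in all 4 libraries. Slc16a14, at chr1:84905898-84935134 (minus strand), was likewise highest in cluster 3 and lowest in cluster 1, and stood in cluster 3 at 4.22 in Klf4 dEC Nos3 null, 8.31 in Klf4 dEC, 4.48 in Nos3 null, set against 8.31 in the control. The low pair for Slc16a14 in this cluster were the libraries labelled as lacking Nos3, whereas for Slc2a2 it was Klf4 dEC Nos3 null with the control.

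The late-segment genes rose toward cluster 1. Slc5a10 (SGLT5, which carries mannose and fructose), at chr11:61672781-61720826 (minus strand), stood in cluster 1 at 2.27 in Klf4 dEC Nos3 null, 2.46 in Klf4 dEC, 4.55 in Nos3 null, set against 4.14 in the control. In cluster 3 it was at 0.129, 0.0995, 0.157 and 0.150 in the same libraries. Slc5a8 (SMCT1, a high-affinity sodium-coupled monocarboxylate transporter), at chr10:88885992-88929515 (plus strand), stood in cluster 1 at 7.96 in Klf4 dEC Nos3 null, 12.1 in Klf4 dEC, 5.57 in Nos3 null, set against 10.5 in the control. The 2 sodium-coupled monocarboxylate transporters therefore lay at opposite ends of the proximal clusters. Slc16a9, which has been tied to carnitine transport in human studies, lies at chr10:70245100-70285968 (plus strand) and had the flattest gradient of the 7. It stood in cluster 1 at 5.44 in Klf4 dEC Nos3 null, 10.5 in Klf4 dEC, 8.59 in Nos3 null, set against 9.16 in the control, and in cluster 3 at 1.46, 2.20, 2.42 and 3.56 in the same libraries.

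The pairing of the genes was described by Pearson's r of log2 levels over the 6 proximal cluster means, points that share their libraries. Slc5a2 and Slc5a12 had r = 0.96, Slc2a2 and Slc16a14 had r = 0.98 and Slc5a10 and Slc5a8 had r = 0.98. Across the 2 patterns the sign turned, with r = -0.90 for Slc5a2 and Slc5a10 and r = -0.94 for Slc5a12 and Slc5a8. Over all 23 clusters, and among 5144 genes that reached 1 per 10000 in some cluster mean, the genes most like Slc5a2 were Gatm (r = 0.97), Prodh2 and Slc7a7, and those most like Slc5a12 were Slc5a2 (r = 0.97), Cyp24a1 and Prodh2. Slc2a2 was most like the basolateral bicarbonate transporter Slc4a4 (r = 0.98), then Slc13a1 and AC135964.2, and Slc16a14 most like Folh1 (r = 0.97), Renbp and AC135964.2. Slc5a10 was most like the phospholipid flippase Atp11a (r = 0.97), BC035947 and Gm853, Slc5a8 most like Vmn1r20 (r = 0.97), Slc7a13 and Nudt19, and Slc16a9 most like the efflux pump Abcc2 (r = 0.98), Osbpl8 and Slc27a2.

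Promoter sequence is shown for the pairs Slc5a10 and Slc5a8, and Slc2a2 and Slc16a14, because each pair moved together over the clusters. The 250 bases before the RefSeq transcript start (GRCm38.p6, read 5′ to 3′ on the gene's strand) were taken for 7 of the 9 genes, in 8 windows. Slc5a2 and Slc5a12 had no entry. Capitals mark matches on either strand to GTTAAT (a half-site of the HNF1 factors), AGGTCA (a nuclear receptor half-site) and GGGGCGGGG (a GC box, bound by SP and KLF factors). CAAAGTCCA (an HNF4 site) was also searched.
Slc5a10, chr11:61720800-61721049, minus strand: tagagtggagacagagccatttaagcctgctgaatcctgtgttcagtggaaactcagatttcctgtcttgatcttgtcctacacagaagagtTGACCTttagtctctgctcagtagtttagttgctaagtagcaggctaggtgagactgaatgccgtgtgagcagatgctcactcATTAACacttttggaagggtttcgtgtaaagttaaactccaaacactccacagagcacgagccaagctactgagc
Slc5a8, chr10:88885742-88885991, plus strand: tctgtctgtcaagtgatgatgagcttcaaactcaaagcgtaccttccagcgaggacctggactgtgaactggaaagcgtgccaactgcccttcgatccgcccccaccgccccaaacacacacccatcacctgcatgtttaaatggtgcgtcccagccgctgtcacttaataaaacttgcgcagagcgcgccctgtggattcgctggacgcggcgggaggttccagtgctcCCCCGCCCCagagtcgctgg
Slc2a2, chr3:28697653-28697902, plus strand: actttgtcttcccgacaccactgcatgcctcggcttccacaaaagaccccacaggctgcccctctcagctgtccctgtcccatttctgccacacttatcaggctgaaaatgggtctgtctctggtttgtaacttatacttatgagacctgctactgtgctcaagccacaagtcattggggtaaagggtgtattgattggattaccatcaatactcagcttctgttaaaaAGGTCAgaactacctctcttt
Slc16a14, chr1:84935084-84935333, minus strand: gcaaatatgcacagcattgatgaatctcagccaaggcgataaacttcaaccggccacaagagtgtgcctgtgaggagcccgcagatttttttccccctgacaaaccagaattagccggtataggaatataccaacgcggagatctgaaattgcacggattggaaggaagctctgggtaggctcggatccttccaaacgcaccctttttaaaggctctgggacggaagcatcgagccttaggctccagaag

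Neither pair shared a matched motif. The HNF1 half-site lay at -75 to -70 from the start of Slc5a10 and in no other of the 8 windows, against 6.43% of all 32851 windows. The nuclear receptor half-site lay at -21 to -16 from the start of Slc2a2 and at -158 to -153 from that of Slc5a10, and 4607 of the 32851 windows held it. The GC box lay at -20 to -12 from the start of Slc5a8 and at -22 to -14 from that of Slc2a1, against 10.4% of all windows. The HNF4 site was in none of the 8 windows and in 0.384% of all windows. The matches describe letters in these windows only.

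Slc5a1 (SGLT1), at chr5:33104219-33162870 (plus strand), had its highest levels outside the proximal nuclei. In cluster 19, whose leading marker list is that of the thick ascending limb, it stood at 3.35 (2.60 to 4.24) in Klf4 dEC Nos3 null, 3.17 (2.38 to 4.12) in Klf4 dEC, 1.54 (0.930 to 2.39) in Nos3 null, set against 3.27 (2.51 to 4.18) in the control. In cluster 4, led by the same list, it stood at 1.97 in Klf4 dEC Nos3 null, 2.74 in Klf4 dEC, 1.63 in Nos3 null, set against 1.50 in the control. In cluster 2, also led by that list, it was at 0.265, 0.452, 0.423 and 0.140 in the same libraries, so the 3 thick ascending limb-like clusters differed. Proximal nuclei as a whole held 0.324 in Klf4 dEC Nos3 null, 0.307 in Klf4 dEC, 0.334 in Nos3 null, set against 0.307 in the control, with 0.476 to 0.622 in cluster 0 and at most 0.117 in clusters 3 and 5.

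The genes most like Slc5a1 over the clusters were Cntn5 (r = 0.86), Cldn16 (r = 0.84), a paracellular channel protein of the thick ascending limb, and Enox1 (r = 0.81). Cluster 19 also held Nos1 at 2.45 (range over libraries 1.52 to 3.18), Pappa2 at 1.20 (0.510 to 1.84) and the thick ascending limb cotransporter Slc12a1 at 153 (99.0 to 182). Nos1 and Pappa2 are known macula densa genes, and they were looked up after the Slc5a1 values had been seen. The spread of Slc5a1 over libraries in cluster 19 did not follow its spread in cluster 4, where Klf4 dEC was highest.

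Slc2a1 (GLUT1, a facilitative glucose transporter found in many cell types), at chr4:119108711-119137983 (plus strand), was highest outside the proximal nuclei. Cluster 8, led by principal cell markers, held 1.17 (0.966 to 1.41) in Klf4 dEC Nos3 null, 1.25 (1.03 to 1.51) in Klf4 dEC, 1.31 (0.926 to 1.79) in Nos3 null, set against 0.631 (0.479 to 0.816) in the control. The control was lowest there and its interval overlapped none of the others. In cluster 18, led by thin limb markers, Slc2a1 stood at 1.58 (1.17 to 2.08) in Klf4 dEC Nos3 null, against 0.419 in Klf4 dEC, 0.160 (0.0234 to 0.538) in Nos3 null, set against 0.436 in the control. Proximal nuclei held 0.0824 in Klf4 dEC Nos3 null, 0.0550 in Klf4 dEC, 0.0459 in Nos3 null, set against 0.0765 in the control. The genes most like Slc2a1 over the clusters were Map2 (r = 0.91), L1cam and Adgrg3.

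**Figure D2:**
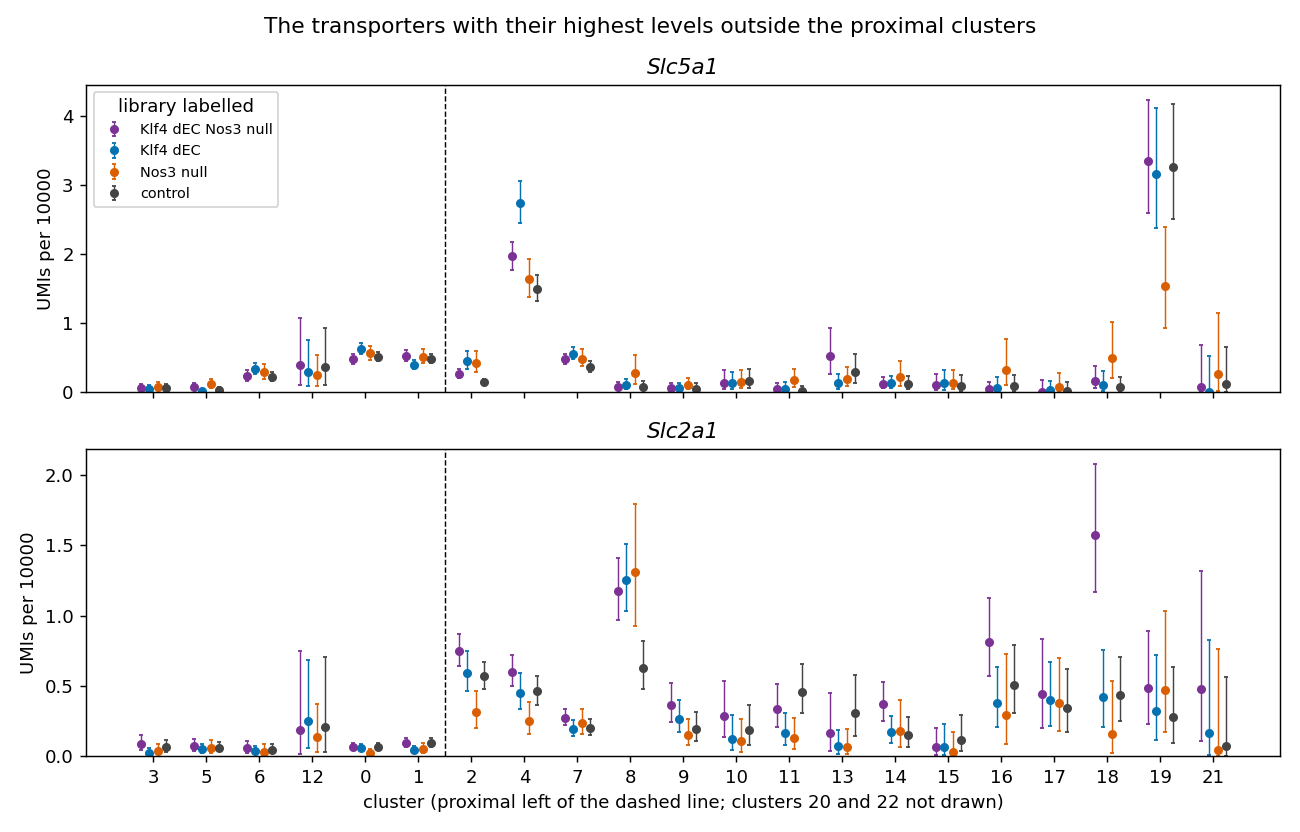
Level of Slc5a1 (top) and Slc2a1 (bottom) in UMIs per 10000 by cluster and library, with 95% counting intervals as bars; clusters left of the dashed line are proximal, and clusters 20 and 22, with few nuclei in some libraries, are not drawn. Slc5a1 stands out in clusters 4 and 19, and Slc2a1 in cluster 8 and, in Klf4 dEC Nos3 null, in cluster 18.

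Related genes showed which neighbours in each family shared the proximal pattern. Of 9 other SLC2 hexose transporters 3 reached 0.5 per 10000, and the fructose transporter Slc2a5 was higher in proximal nuclei than in the rest by 1.58 on the log2 scale while Slc2a9 (-1.61) and Slc2a13 (-3.45) were lower. Of 5 other measured SLC5 genes only Slc5a11, an inositol transporter, reached that level, at 1.85. Of 12 other SLC16 genes 5 reached it, with Slc16a12 at 1.12 and the aromatic amino acid carrier Slc16a10 at 0.86, against Slc16a5 at -2.41 and Slc16a7 at -3.78. The lists' medians were -1.61, 1.85 and 0.86, beside -0.15 for all genes.

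Among 6 measured partner genes 5 reached the level, and the scaffold Pdzk1 was past the limit at 2.43. Slc9a3r1 lay at 0.83, Pdzk1ip1, an activating partner of SGLT2, at 0.54, the sodium-proton exchanger Slc9a3 at -0.08 and the SLC16 chaperone Bsg at -0.37 (median 0.54). Of 18 genes of hexose metabolism 10 reached it, 6 higher and 3 lower past the limit (median 1.32). The gluconeogenic Fbp1 (2.10) and G6pc (1.84) were the highest, and the glycolytic Hk1 (-3.76) and Pfkp (-2.36) the lowest. Of 17 genes of lactate, pyruvate and ketone metabolism 13 reached it, 4 higher and 1 lower (median 0.10), with the gluconeogenic Pck1 at 2.26 and Pcx at 1.84 highest and Pdk1 at -2.13 and Ldhb at -0.82 lowest. Of 12 transcription factors on a list drawn up for the proximal tubule 8 reached it, 5 higher and 1 lower (median 1.72). Hnf4a at 2.34 and Hnf4g at 2.21 were highest and Esrrg at -0.21 and Tfap2b at -3.34 lowest. Tfap2b averaged 0.157 in proximal nuclei and 2.43 in the rest, so it did not mark proximal nuclei here.

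Between libraries, 7 of the 9 transporters reached 0.5 per 10000 in proximal nuclei of some library pair and entered the comparisons. Slc5a1 and Slc2a1 did not, since their proximal levels stayed under 0.5. A log2 ratio of at least 1 either way was counted as past the limit. The 5 comparisons share libraries, so their values for one gene are not independent of each other.

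**Figure D3:**
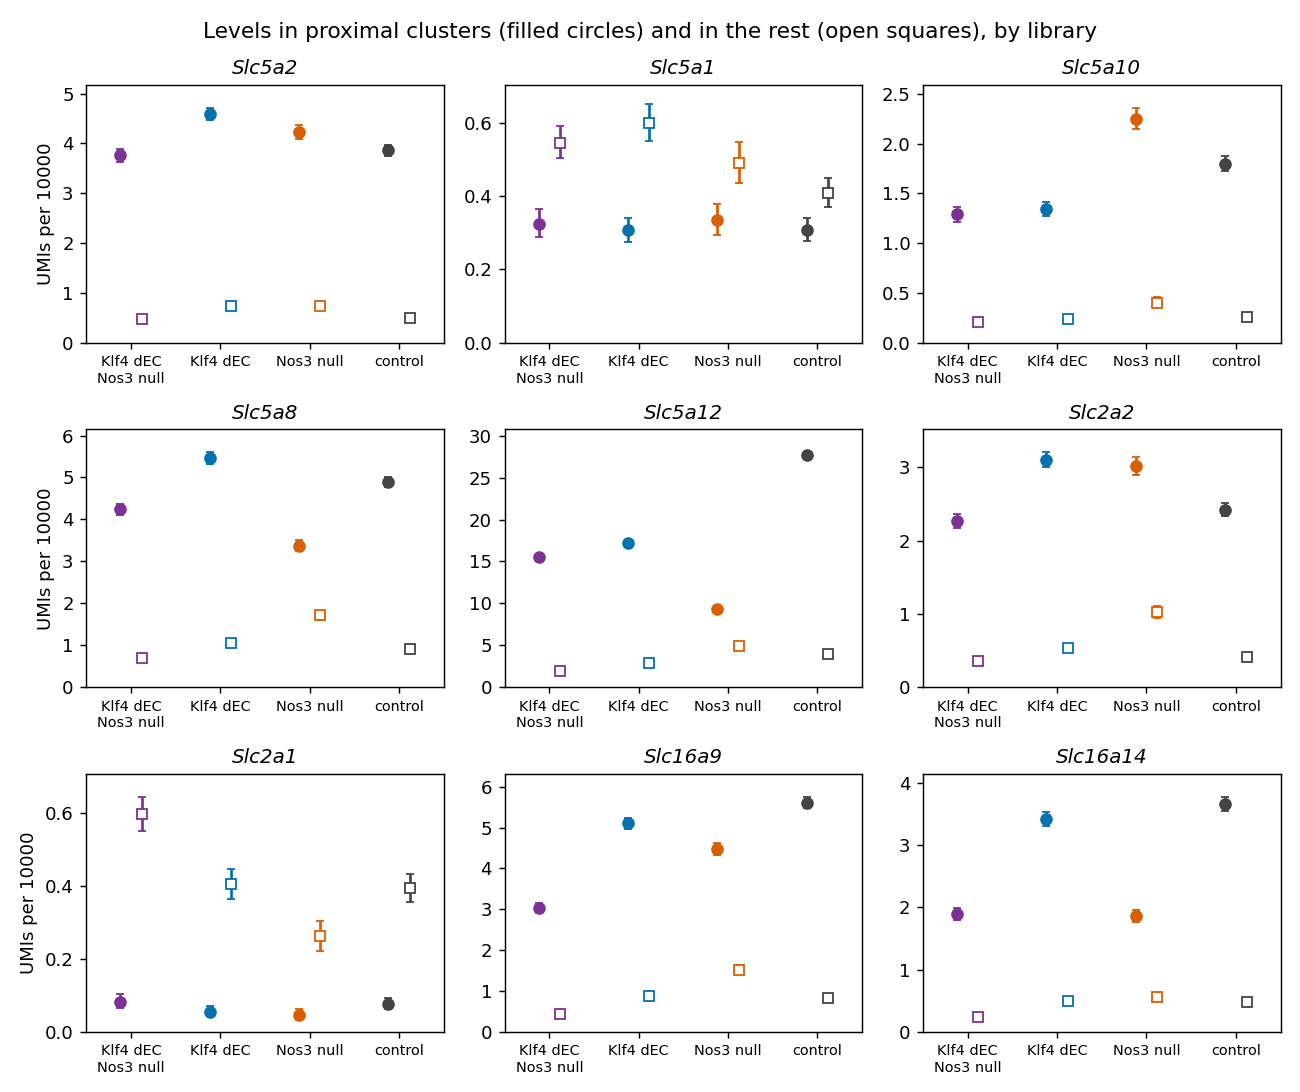
Level of each transporter in UMIs per 10000 in proximal nuclei (filled circles) and in all other nuclei (open squares), by library, with 95% counting intervals as bars, many smaller than the symbol. Slc5a12 spans the widest range among proximal levels, with 9.29 in Nos3 null and 27.7 in the control, and its open square is highest in Nos3 null.

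Slc5a12 in Nos3 null against the control was the only transporter ratio past the limit. Proximal nuclei held 15.5 in Klf4 dEC Nos3 null, 17.2 in Klf4 dEC, 9.29 in Nos3 null, set against 27.7 in the control. The log2 ratio of Nos3 null over the control was -1.56 (-1.61 to -1.54), the 27th lowest of 3769 genes, of which 3.50% were past the limit either way. Over the control, Klf4 dEC lay at -0.68 and Klf4 dEC Nos3 null at -0.83, and Klf4 dEC Nos3 null lay at 0.73 over Nos3 null and at -0.15 over Klf4 dEC. The control was thus highest, Nos3 null lowest and the other libraries between them.

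The direction of that difference depended on the cluster. The log2 ratio of Nos3 null over the control was -1.89 in cluster 3, -1.90 in cluster 5, -1.19 in cluster 6 and -0.92 in cluster 12, but 1.05 in cluster 0 and 0.38 in cluster 1. In cluster 0 Slc5a12 stood at 2.59 in Nos3 null, set against 1.20 in the control. Klf4 dEC and Klf4 dEC Nos3 null were each lower than the control in 6 of 6 proximal clusters. In cluster 3 the 7 early-segment markers spread from -0.35 to 0.20 for Nos3 null over the control, with a median of -0.18, and Slc5a2 lay at 0.07.

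The ratio of Slc5a12 to Slc5a2 was read within each library, so that it does not depend on the total to which a column is scaled. In cluster 3 it was 3.32 (3.13 to 3.51) in Klf4 dEC Nos3 null, 3.34 (3.18 to 3.51) in Klf4 dEC, 1.52 (1.43 to 1.62) in Nos3 null, set against 5.94 (5.66 to 6.23) in the control. In nuclei outside the proximal clusters it was 4.14 (3.77 to 4.56) in Klf4 dEC Nos3 null, 3.95 (3.63 to 4.30) in Klf4 dEC, 6.63 (6.00 to 7.33) in Nos3 null, set against 8.02 (7.32 to 8.80) in the control. Over all proximal nuclei it was 4.11 in Klf4 dEC Nos3 null, 3.75 in Klf4 dEC, 2.20 in Nos3 null, set against 7.16 in the control. In cluster 3 the Klf4 dEC Nos3 null and Klf4 dEC intervals overlapped, and Nos3 null lay below and the control above them. Within the proximal nuclei the order was not the same in every cluster. In cluster 0 the ratio was 4.00 (2.97 to 5.47) in Klf4 dEC Nos3 null, 3.21 (2.46 to 4.22) in Klf4 dEC, 10.1 (7.73 to 13.5) in Nos3 null, set against 6.08 (4.86 to 7.68) in the control. In cluster 12 it was 1.46 (0.981 to 2.19) in Klf4 dEC Nos3 null and 1.17 (0.940 to 1.45) in Klf4 dEC. There it was 3.49 (2.67 to 4.61) in Nos3 null, set against 2.79 (2.13 to 3.71) in the control. Nos3 null was thus lowest in cluster 3 and highest in clusters 0 and 12, but in cluster 12 its interval overlapped that of the control.

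**Figure D4:**
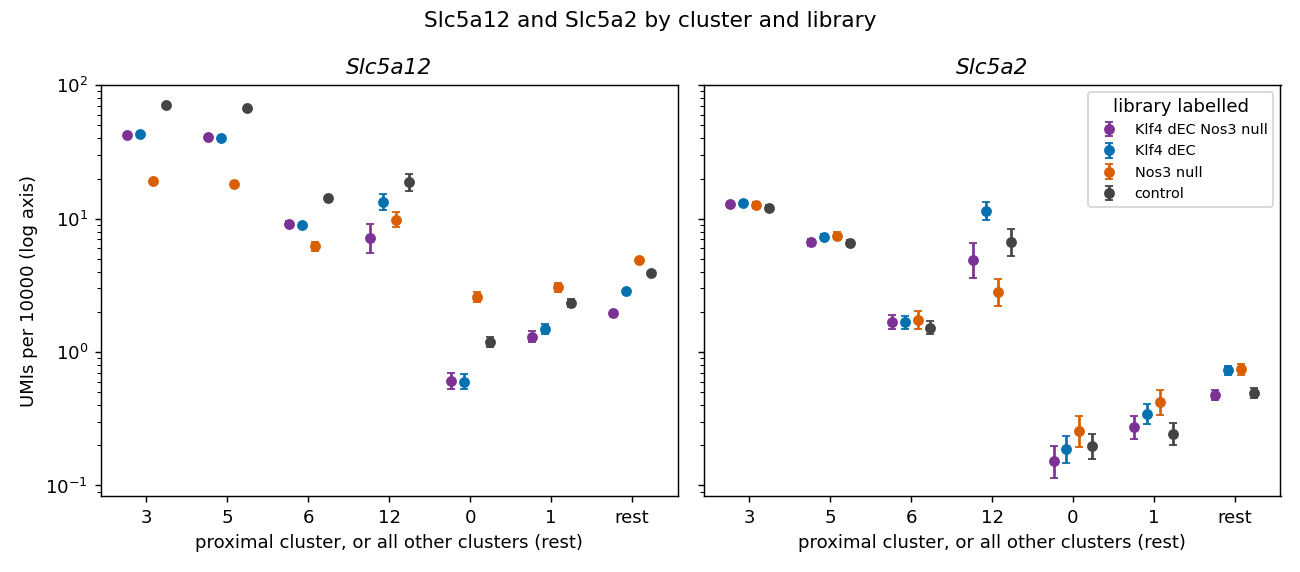
Level of Slc5a12 (left) and Slc5a2 (right) in UMIs per 10000 on a log axis, by proximal cluster and in all other nuclei (rest), for the 4 libraries, with 95% counting intervals as bars. In clusters 3 and 5 Slc5a12 is lowest in Nos3 null and highest in the control while the Slc5a2 values lie close together; in clusters 0 and 1 and in the rest Slc5a12 is highest in Nos3 null.

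Both sodium-coupled monocarboxylate transporters were spread more evenly over the nuclei of Nos3 null than over those of the other libraries. The level of Slc5a12 in the rest was 12.7% of its proximal level in Klf4 dEC Nos3 null, 16.8% in Klf4 dEC, 52.9% in Nos3 null, set against 14.2% in the control. The share for Slc5a8 was 16.7% in Klf4 dEC Nos3 null, 19.1% in Klf4 dEC, 50.8% in Nos3 null, set against 18.9% in the control. For Slc2a2, Slc16a9 and Slc16a14 it was 33.9%, 34.1% and 29.7% in Nos3 null and between 12.8% and 17.3% in the other libraries. For Slc5a2 and Slc5a10 it was 17.6% and 17.98% in Nos3 null, near the 12.6% to 17.5% of the other libraries.

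The 15 proximal markers, treated one by one, had shares between 22.8% and 53.3% in Nos3 null (median 35.2%), against medians of 16.5% in Klf4 dEC Nos3 null, 19.7% in Klf4 dEC and 17.6% in the control. Slc5a12 and Slc5a8 lay at the upper end of that range, and Slc5a2 and Slc5a10 below its lower end. In Nos3 null Slc5a12 was at 3.69 to 6.78 in each of 15 clusters outside the proximal ones, clusters 20 and 22 left out, against 1.42 to 14.7 in the control. RNA released from broken cells can enter droplets of any nucleus, and its part in these levels was not tested. Nos3 null also had the lowest depth and the lowest sum of 11 mitochondrially encoded transcripts in proximal nuclei, 52.8 in Klf4 dEC Nos3 null, 48.0 in Klf4 dEC, 23.7 in Nos3 null, set against 47.6 in the control, and the part of these in the differences of Nos3 null was not tested. In the same nuclei 5 connecting tubule markers summed to 1.72 in Klf4 dEC Nos3 null, 2.07 in Klf4 dEC, 11.6 in Nos3 null, set against 2.74 in the control.

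Slc5a8 differed in the opposite way at the 2 ends of the proximal clusters. Proximal nuclei as a whole held 4.24 in Klf4 dEC Nos3 null, 5.47 in Klf4 dEC, 3.38 in Nos3 null, set against 4.89 in the control. The log2 ratio of Nos3 null over the control was -0.90 in cluster 1 and -0.54 in cluster 0, but 1.15 in cluster 3 and 0.62 in cluster 5, where Slc5a8 was low. The highest over the lowest proximal cluster was 23.4 times in Klf4 dEC Nos3 null, 31.1 times in Klf4 dEC, 4.15 times in Nos3 null, set against 19.1 times in the control. Its log2 ratio over all proximal nuclei was -0.52 in this comparison, 0.16 in Klf4 dEC over the control and 0.32 in Klf4 dEC Nos3 null over Nos3 null.

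Slc16a14 and Slc16a9 separated the libraries in a different way from Slc5a12. Slc16a14 held 1.89 in Klf4 dEC Nos3 null, 3.42 in Klf4 dEC, 1.86 in Nos3 null, set against 3.66 in the control, so that the libraries labelled as lacking Nos3 formed the low pair. Its log2 ratio was -0.94 (-1.07 to -0.89) in Nos3 null over the control, lower in 5 of 6 clusters. With Klf4 dEC Nos3 null set over Klf4 dEC it was -0.82 (-0.94 to -0.77), lower in 6 of 6. It was -0.09 in Klf4 dEC over the control and 0.02 in Klf4 dEC Nos3 null over Nos3 null. With levels rescaled by the median ratio of genes the value for Nos3 null over the control became -1.01, and with a plain mean over clusters -1.06, both past the limit.

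Slc16a9 was lowest in Klf4 dEC Nos3 null, at 3.03, against 5.10 in Klf4 dEC, 4.47 in Nos3 null, set against 5.61 in the control. Klf4 dEC Nos3 null was lower than each other library in 6 of 6 proximal clusters. The log2 ratios of Klf4 dEC Nos3 null were -0.54 (-0.63 to -0.48) over Nos3 null, -0.73 (-0.82 to -0.68) over Klf4 dEC and -0.87 (-0.95 to -0.82) over the control. The single labels gave -0.13 for Klf4 dEC and -0.32 for Nos3 null over the control.

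**Figure D5:**
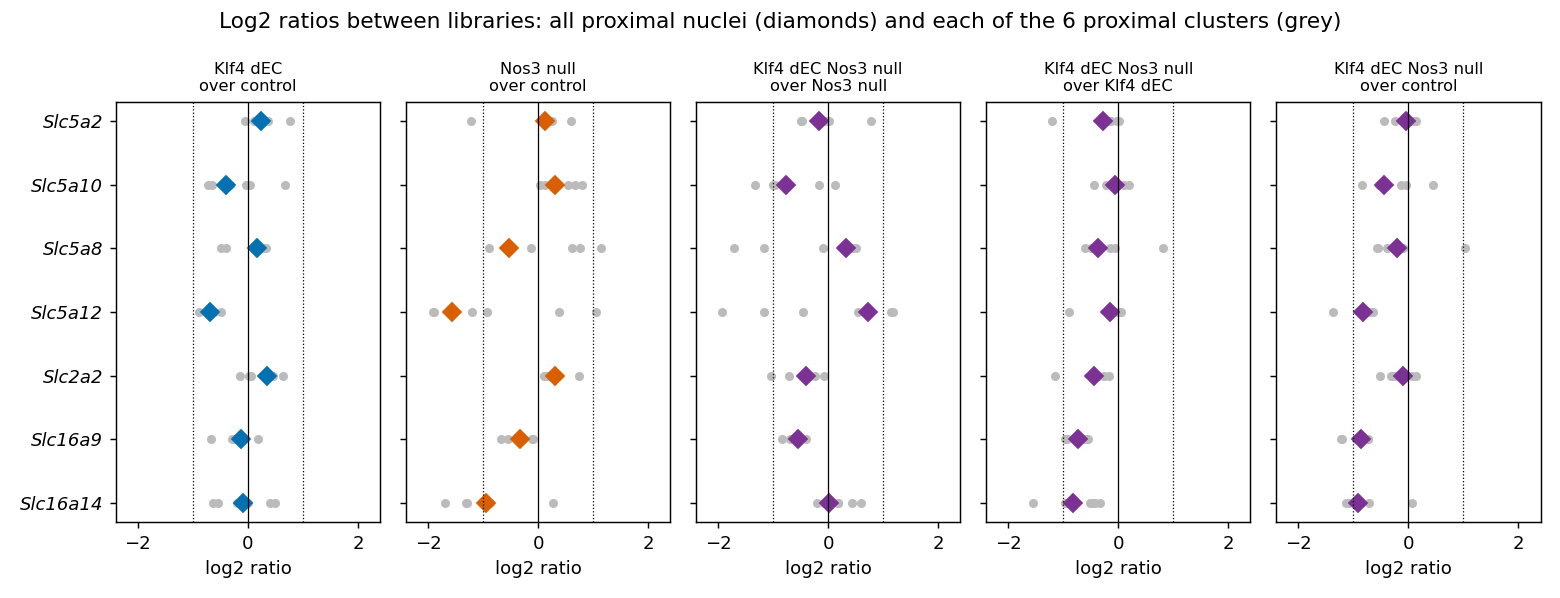
Log2 ratio between libraries of the 7 transporters that entered, for 5 comparisons; diamonds give all proximal nuclei, grey dots each of the 6 proximal clusters, the solid line 0 and the dotted lines the limit of 1 either way. Where Klf4 dEC Nos3 null is set over Klf4 dEC and over the control all 7 diamonds lie below 0, and only Slc5a12 in Nos3 null over the control lies past the limit.

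Over all proximal nuclei, the 3 sugar transporters that entered were lowest in Klf4 dEC Nos3 null. Slc5a2 and Slc2a2 were highest in Klf4 dEC and Slc5a10 in Nos3 null. The order against the control varied by cluster. For Klf4 dEC Nos3 null over the control, Slc5a2 lay at 0.08 in cluster 3 and -0.24 in cluster 0, and Slc2a2 at 0.07 and -0.31. Clusters 3 and 5 held 32.6% of proximal nuclei in Klf4 dEC Nos3 null, set against 35.1% in the control. The part of this share in the pooled values was not tested. Slc5a2 held 3.76 in Klf4 dEC Nos3 null, 4.59 in Klf4 dEC, 4.23 in Nos3 null, set against 3.87 in the control, and its log2 ratios ran from -0.28 to 0.24. Its ratios of Nos3 null over the control (0.13) and of Klf4 dEC Nos3 null over Nos3 null (-0.16) turned to -0.10 and 0.06 with a plain mean over clusters, which gives the shallow cluster 12 more weight. In that cluster Slc5a2 was at 4.91 in Klf4 dEC Nos3 null, 11.5 in Klf4 dEC, 2.82 in Nos3 null, set against 6.71 in the control, a wider spread than in cluster 3. Slc2a2 held 2.27 in Klf4 dEC Nos3 null, 3.10 in Klf4 dEC, 3.02 in Nos3 null, set against 2.42 in the control, so its high pair were the libraries with a single labelled deletion. Slc5a10 held 1.29 in Klf4 dEC Nos3 null, 1.34 in Klf4 dEC, 2.25 in Nos3 null, set against 1.80 in the control, and its log2 ratio of Klf4 dEC Nos3 null over Nos3 null was -0.76 (-0.91 to -0.69). The libraries labelled as lacking endothelial Klf4 were thus the low pair for Slc5a10 over all proximal nuclei, but not in every cluster. Over the control, Klf4 dEC and Klf4 dEC Nos3 null lay at -0.73 and -0.84 in cluster 1. The same ratios were 0.03 and -0.05 in cluster 0, and 0.67 and 0.46 in the shallow cluster 12.

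Counted over the comparisons, 0 transporters were past the limit for Klf4 dEC over the control, where 0.763% of 3668 genes were. The median of the 7 was -0.09, beside 0.00 for all genes. For Nos3 null over the control it was -0.32, beside 0.07. With Klf4 dEC Nos3 null over Nos3 null 0 of the 7 were past the limit, where 4.73% of 3976 genes were, and the median was -0.16, beside 0.02. With Klf4 dEC Nos3 null over Klf4 dEC 0 were past it, where 1.87% of 3906 genes were, and the median was -0.36, beside 0.10. For Klf4 dEC Nos3 null over the control 0 were past it, where 0.902% of 3882 genes were, and the median was -0.45, beside 0.08. In each of the last 2 comparisons, which share the Klf4 dEC Nos3 null library, all 7 were below 0 over all proximal nuclei. Slc16a9 was lower in every proximal cluster in both, but this did not hold for all 7. Slc5a12 over Klf4 dEC was higher in 3 clusters and lower in 3, and Slc5a2 over the control lay at 0.08 in cluster 3. Over all proximal nuclei the interval of Slc5a10 over Klf4 dEC, at -0.05 (-0.17 to 0.06), held 0. Slc5a2 over the control lay at -0.04, and the intervals of its levels in these libraries overlapped. The share of all genes below 0 is not given here. Slc16a14, Slc16a9 and Slc5a12 were the 15th, 18th and 21st lowest of the 3882 genes for Klf4 dEC Nos3 null over the control.

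Of the genes in the 7 related lists 1 passed the limit between libraries in proximal nuclei. For Nos3 null over the control the lists, in the order given above, entered 1, 1, 5, 4, 7, 11 and 7 genes. Of all 3769 genes 3.50% were past the limit there. With Klf4 dEC Nos3 null over Nos3 null the lists entered 1, 1, 4, 5, 7, 13 and 8 genes, and 4.73% of all 3976 genes were past it. Slc16a7, a high-affinity monocarboxylate transporter whose level averaged 0.483 in proximal nuclei and 7.25 in the rest, held 0.952 in Nos3 null, set against 0.332 in the control (1.29 as a log2 ratio). It held 0.406 in Klf4 dEC Nos3 null and 0.952 in Nos3 null, a log2 ratio of -1.06. The higher level of Slc16a7 in proximal nuclei of Nos3 null stood beside the connecting tubule marker sum given above, and its link to that sum was not tested.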

How the data were processed

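Nuclei of kidney cortex were profiled with droplet-based single-nucleus RNA sequencing. The mm10 build, Cell Ranger and Seurat were used, per the submitters' processing notes; tool versions, clustering settings, doublet treatment and the use of read strand were not given in the sources used here. The deposited table is a signal of 21046 genes in 92 columns, 23 clusters in each of 4 libraries, and each column sums to 10000. 0 other columns of values were left over. Barcodes are not used here, so barcodes shared by libraries were not counted.

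Nuclei per column were inferred, since 10000 divided by the value of a gene seen as 1 UMI in 1 nucleus is a multiple of the nuclei number. The largest number dividing at least 70% of the reciprocals at or above their median was taken (tolerance 3e-14). It divided at least 70.8% of them in each column (91.0% in proximal columns), and its double divided at most 65.2%. On simulated data 16 of 16 columns gave the exact number, effective UMIs were off by at most 2.12%, and interval coverage was 95.6%. Coverage in the deposited data was not tested.

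Levels of several clusters are means weighted by nuclei. Ratios are log2 of (level + 0.1), which understates changes at low levels. A gene entered if its higher level was at least 0.5, and the limit was 1 either way. Intervals are exact Poisson for levels and Clopper-Pearson for ratios without the pseudocount, and assume equal profiles in all nuclei of a column. They leave out mice, dissections and preparations. No test was made, since each genotype has 1 library and proximal clusters were made from the same nuclei. On the opposite strand Fam83g overlaps Slc5a10 and 1700112D23Rik overlaps Slc2a2. Likewise BC017158 overlaps 1052 bases of Slc5a2, Gm12868 overlaps 4235 bases of Slc2a1 and Gm7097 overlaps 719 bases of Slc16a9. Reads of these pairs may therefore not be separable.

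The transporters, lists, markers and rules were chosen with earlier results of these data known. Named genes were all 9 transporters, the 3 genes most like each over the clusters, list genes past the limit between libraries, and the 2 highest and 2 lowest of each list for proximal over rest (Slc16a10 and Pdzk1ip1 were added after their values were seen). A gene that this rule names is not reported here. Coordinates are from GENCODE M21 (GRCm38). Python 3.11.15, pandas 2.3.3, NumPy 2.4.6, SciPy 1.17.1 and matplotlib 3.10.9 were used.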

Additional observations from a re-analysis of the deposited data

Results flagged for a closer look

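Transporters whose proximal log2 ratio for one labelled deletion pointed one way on one background and the other way on the other, with both 95% counting intervals clear of 0, were looked at again. With 1 library per genotype the difference between backgrounds was not tested. The Klf4 dEC label on the Nos3-deficient background means Klf4 dEC Nos3 null over Nos3 null. On the background not labelled as lacking Nos3 it means Klf4 dEC over the control. Slc5a12 lay at 0.73 and -0.68 in that order, Slc2a2 at -0.40 and 0.35, and Slc5a2 at -0.16 and 0.24. These values are over all proximal nuclei, and single clusters differed. Slc5a12 pointed in opposite ways in clusters 3, 5 and 6. In clusters 0, 1 and 12 it lay below 0 on both backgrounds. Slc2a2 pointed in opposite ways in every proximal cluster but cluster 1, where it lay at -1.04 and -0.14. Slc5a2 pointed in opposite ways in clusters 1, 5 and 6 only, and lay at 0.01 and 0.11 in cluster 3. The Nos3 null label on the Klf4 dEC background means Klf4 dEC Nos3 null over Klf4 dEC. On the background not labelled as lacking endothelial Klf4 it means Nos3 null over the control. Slc2a2 lay at -0.44 and 0.31, Slc5a2 at -0.28 and 0.13, and Slc2a1 at 0.24 and -0.28, the last at proximal levels under 0.1 per 10000 in all 4 libraries. By cluster, Slc2a2 pointed in opposite ways in every proximal cluster, Slc5a2 in all but clusters 6 and 12, and Slc2a1 in all but cluster 12. With a plain mean over clusters Slc5a2 turned to 0.06 in Klf4 dEC Nos3 null over Nos3 null and to -0.10 in Nos3 null over the control, so that neither of its pairs then pointed in opposite ways; the other pairs kept their directions under the alternatives tried. Nos3 null, which stands apart in depth and in proximal RNA outside proximal nuclei, enters 1 side of each of these pairs.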

How the results depend on the processing

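No paired analysis was possible because each genotype has 1 library, so that the genotypes share fewer than 2 replicate numbers; proximal over rest was read within each library, with no test. The 7 transporters past the limit for proximal over rest stayed 7 under every alternative tried: other pseudocounts, no filter, a plain mean over clusters, without cluster 12, rescaling without mitochondrial transcripts, without clusters 7, 13 and 17, and without each library in turn. Of the single-gene ratios recomputed under the alternatives 363 moved by less than their spread or counting interval and 51 moved by more, and 0 past the limit changed sign. For Nos3 null over the control, 2 transporters passed the limit under a plain mean over clusters and under median-ratio rescaling, in place of 1, the added one being Slc16a14. Median-ratio rescaling moved the median of all genes by at most 0.08. Of all genes past the limit, a pseudocount of 0.5 left 11 in place of 28 for Klf4 dEC over the control (5 higher, 6 lower), 56 in place of 132 for Nos3 null over the control, 64 in place of 188 with Klf4 dEC Nos3 null over Nos3 null, 23 in place of 73 with it over Klf4 dEC (9 higher, 14 lower) and 13 in place of 35 with it over the control. For Klf4 dEC Nos3 null over the control, a pseudocount of 0.02 gave 56, no filter 53 and a plain mean 63. Without the filter, Nos3 null over the control gave 260 and Klf4 dEC Nos3 null over Nos3 null 379. Median-ratio rescaling gave 24 higher and 43 lower, in place of 38 and 35, when Klf4 dEC Nos3 null was set over Klf4 dEC. A plain mean gave 210 higher and 48 lower, in place of 131 and 57, when it was set over Nos3 null. Slc5a1 and Slc2a1 did not enter the comparisons between libraries because both were under the level filter of 0.5 per 10000 in proximal nuclei. In the control they stood there at 0.307 (0.276 to 0.340) and 0.0765 (0.0617 to 0.0938).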

Other observations

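Outside the 6 proximal clusters, clusters 7, 13 and 22 were among those that carried proximal transporters. Cluster 7, which is not among the 6 proximal clusters although the proximal marker list led it too, held Slc16a9 at 2.35 in Klf4 dEC Nos3 null, 3.57 in Klf4 dEC, 2.77 in Nos3 null, set against 4.06 in the control, and it was the highest non-proximal cluster for Slc5a10 in all 4 libraries. Cluster 13, led by stromal cell markers, held Slc5a8 at 2.39 in Klf4 dEC Nos3 null, 2.36 in Klf4 dEC, 2.22 in Nos3 null, set against 2.23 in the control, and Slc5a12 at 7.14, 6.18, 5.67 and 10.7 in the same libraries. Cluster 22, whose leading list is that of cycling cells, held Slc5a12 at 5.51 (4.18 to 7.13) in Klf4 dEC Nos3 null, 19.9 (16.7 to 23.7) in Klf4 dEC, 10.3 (7.69 to 13.6) in Nos3 null, set against 19.4 (16.7 to 22.4) in the control. These rest on nuclei inferred to number 14 in Klf4 dEC Nos3 null, 12 in Klf4 dEC, 17 in Nos3 null, set against 15 in the control. The number for Klf4 dEC divided 70.8% of its reciprocals, the lowest share of any column, and the intervals depend on these numbers. Slc16a14 was present in the same nuclei at 0.977 in Klf4 dEC Nos3 null, 4.26 in Klf4 dEC, 3.99 in Nos3 null, set against 3.79 in the control.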
